A study of Rattus norvegicus with 8 samples.

Results

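Ferritin is the protein shell in which cells store iron, and 9 genes of ferritin and cellular iron handling were followed here in the RNA of rat plasma exosomes. The 9 genes were Fth1, Ftl1, Tfrc, Slc40a1, Slc11a2, Ireb2, Aco1, Ncoa4 and Hmox1, of 29541 genes in the table. They were taken by name, and 7 of the 9 names occurred as written. Ftl1 and Ncoa4 occurred as 2 numbered rows each, which gave 11 rows in all. Of these, 9 rows had reads and 1 row, that of Fth1, passed a mean of 1 TPM (transcript abundance, reads divided by gene length and brought to the same total in each library). The genes had been selected on the exercised against sedentary difference of Fth1 in these same libraries, so that difference is given as a description, without a test, for all 9 genes.

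Cells keep free iron low. Transferrin carries iron in blood, the transferrin receptor Tfrc takes it up, and Slc11a2 (DMT1) moves it out of the endosome. Ferritin, built of heavy chains that oxidise iron and light chains that help to deposit it, stores the surplus, and Ncoa4 brings ferritin to the lysosome when iron is needed. Slc40a1 (ferroportin) exports iron, and Hmox1 frees it from heme. The iron regulatory proteins Aco1 and Ireb2 bind iron-responsive elements, short RNA hairpins, and when iron is low they block translation of ferritin mRNA and protect Tfrc mRNA from decay. Ferritin mRNA is abundant in red cell precursors, macrophages and liver, which handle much of the iron of the body.

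The samples were 4 sedentary and 4 exercised male Sprague Dawley rat libraries, a to d in each group, all from animals that had received no alpha-synuclein fibrils. The exercise was treadmill running without incline, 30 min a day at 20 m/min, preceded by 5 min at 10 m/min, and it was given 5 days a week over 1 month while sedentary rats stayed in the room. Blood was taken within 30 min of the last run, vesicles were precipitated from 1.5 mL of plasma with a commercial reagent, and 1 ng of RNA entered a stranded total RNA kit. The labels do not say whether animals were pooled, so the spread is between libraries.

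Depth set what could be seen. TPM values fell on whole multiples of the value of a single read, so reads could be recovered, and libraries held 10020804 to 31357153 of them. The 10 most abundant RNAs took 98.1 to 99.2% of all TPM, which left 64776 to 139868 reads per library for every other gene. The 9 iron genes shared 690 reads over the 8 libraries, and Fth1 held 70.4% of these. Because the 10 abundant RNAs move every other TPM value, the reads of a gene per 1000000 of the reads outside them (RPM) are given beside TPM. In a bulk sample, fewer vesicles from a cell type and less RNA per vesicle cannot be told apart.

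The iron-responsive element could be shown for a ferritin light chain copy, LOC100360087, which the RefSeq gene list gives the synonym Ftl1. Its letters are printed because this hairpin is the site through which the iron regulatory proteins act on ferritin mRNA. The stretch lies at chr5:151606529-151606545 (GRCr8, plus strand), with the bulged C at position 40 and the last base at position 50 from the start of the transcript, and the sequence comes from RefSeq. Capitals mark the bulged C and the loop letters CAGTG.

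LOC100360087: atcttgCttcaaCAGTG

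The motif CNNNNNCAGTG occurred on the transcribed strand in 9.58% of 33469 promoter windows and on either strand in 18.4%. Each window ran from 250 bases before to 50 bases after the start of the transcript, so most of it is not in the RNA. In windows of that length the letters by themselves are common. Of the rows of this name, LOC100360087_1 had no read and LOC100360087_2 had 2, both in exercised b. The sequence was found by the name alone, so which row it belongs to is not known. The element is shown as background to the family rather than for its level.

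Fth1, the ferritin heavy chain (ENSRNOG00000022619), had the most reads of the 9 genes. The TPM values were 1.32, 2.89, 2.04 and 1.20 in sedentary libraries a to d. They were 9.53, 4.12, 14.3 and 3.35 in exercised libraries a to d. All 4 exercised libraries lay above all 4 sedentary libraries, and exercised c and a were the highest. The nearest values were 3.35 in exercised d and 2.89 in sedentary b. Mean levels were 7.84 ± 5.14 TPM (SD, n = 4) in exercised and 1.86 ± 0.780 TPM (SD, n = 4) in sedentary libraries, a ratio of 4.21. On the log2(TPM + 1) scale the difference was 1.47 (SE 0.470), where the median of the 508 genes with a mean of 1 TPM or more was 0.40. After TPM were scaled without the 10 most abundant RNAs these were 0.98 and 0.00. Groups that did not overlap, with exercised higher, made up 1.06% of the 17901 genes with reads, and since Fth1 was chosen by this contrast nothing is read from that.

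**Figure D1:**
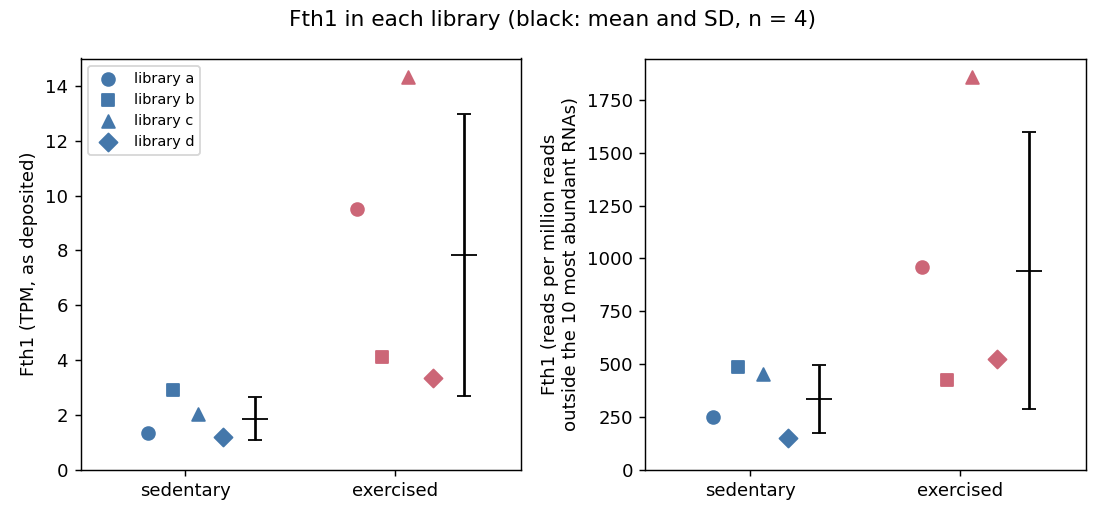
Fth1 in each of the 8 libraries, as deposited TPM on the left and as RPM, which leaves out the 10 most abundant RNAs, on the right. Coloured symbols are libraries a to d and black bars are the mean and SD (n = 4). In TPM the exercised libraries lie from 3.35 to 14.3 and the sedentary ones from 1.20 to 2.89, while on the right exercised b (425) lies below sedentary b (485) and sedentary c (451).

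Behind these levels stood 26, 37, 44 and 21 Fth1 reads in sedentary libraries a to d. There were 62, 59, 192 and 45 in exercised libraries a to d. In RPM the sedentary values were 251, 485, 451 and 150, and the exercised values were 957, 425, 1861 and 522. The exact 95% binomial interval of exercised b, 323 to 548 RPM, takes in both sedentary b and sedentary c, and it covers counting error only. Mean RPM was 941 ± 655 (SD, n = 4) in exercised and 334 ± 160 (SD, n = 4) in sedentary libraries, a ratio of 2.82. The separation of the groups in TPM was therefore not kept in RPM, where 0.52% of genes with reads had exercised libraries all above sedentary ones. Leaving out each library in turn gave TPM ratios from 3.04, without exercised c, to 5.16, without sedentary b.

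Ftl1, the ferritin light chain, did not share this pattern. Of its 2 rows, Ftl1_2 was listed at 0 in every library and Ftl1_1 (ENSRNOG00000064385) held all 68 reads. Sedentary libraries a to d had 0.187, 0.288, 0.113 and 0.0700 TPM of Ftl1_1. Exercised libraries a to d had 2.07, 0, 0 and 0.243 TPM. Exercised a alone made up 89.5% of the exercised sum, and exercised b and c, the latter the highest for Fth1, had no read. The ratio of group means was 3.52, with means of 0.579 ± 1.0 (SD, n = 4) and 0.165 ± 0.0953 TPM (SD, n = 4), and it became 0.493 without exercised a. No direction can be given for Ftl1 from these libraries.

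Ferritin genes have many near-identical copies, and the sources used here do not say how reads were shared among them, so single rows are uncertain. The table held 14 rows that carry a ferritin heavy or light chain name or synonym, 7 of each, and 6 of them had reads. Besides Fth1, the heavy chain had reads in Fth1-ps5 (8 reads). Besides Ftl1_1, the light chain had reads in Ftl1-ps14 (20 reads), Ftl1l2 (10 reads) and LOC100360087_2 (2 reads). The last of these is a short row, so its 2 reads stood for 0.652 TPM and made up most of the light chain sum of exercised b. Summed heavy chain rows were at 7.88 ± 5.10 TPM in exercised and 1.96 ± 0.684 TPM in sedentary libraries (SD, n = 4), a ratio of 4.02, and the groups stayed apart in TPM. Fth1 held nearly all of these reads, and its own groups overlapped in RPM, so this sum is no separate result. Summed light chain rows were at 0.830 ± 0.852 and 0.284 ± 0.128 TPM (SD, n = 4), with 53 and 47 reads, and the groups overlapped. The light chain ratio was 2.92, and 1.46 without exercised a. The 1.46 leans on the 2 reads of LOC100360087_2 in exercised b, so no direction is read from it.

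The balance of the chains varied from library to library. Heavy chain TPM exceeded light chain TPM by 3.35, 8.09, 8.45 and 12.2 times in sedentary libraries a to d. In exercised libraries a to d it did so by 4.60, 6.24, 67.9 and 9.54 times. Exercised c stood out, with 192 heavy and 6 light chain reads, and the other 3 exercised libraries lay within the sedentary range. The heavy chain was thus the higher one in 8 of 8 libraries. The size of these ratios depends on gene length, which was 985 bases for Fth1 and 2411 bases for Ftl1_1. In reads the chains mostly lay closer, with 27 heavy and 19 light in sedentary a and 62 and 33 in exercised a. Exercised b alone went the other way, with 61 and 3.

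**Figure D2:**
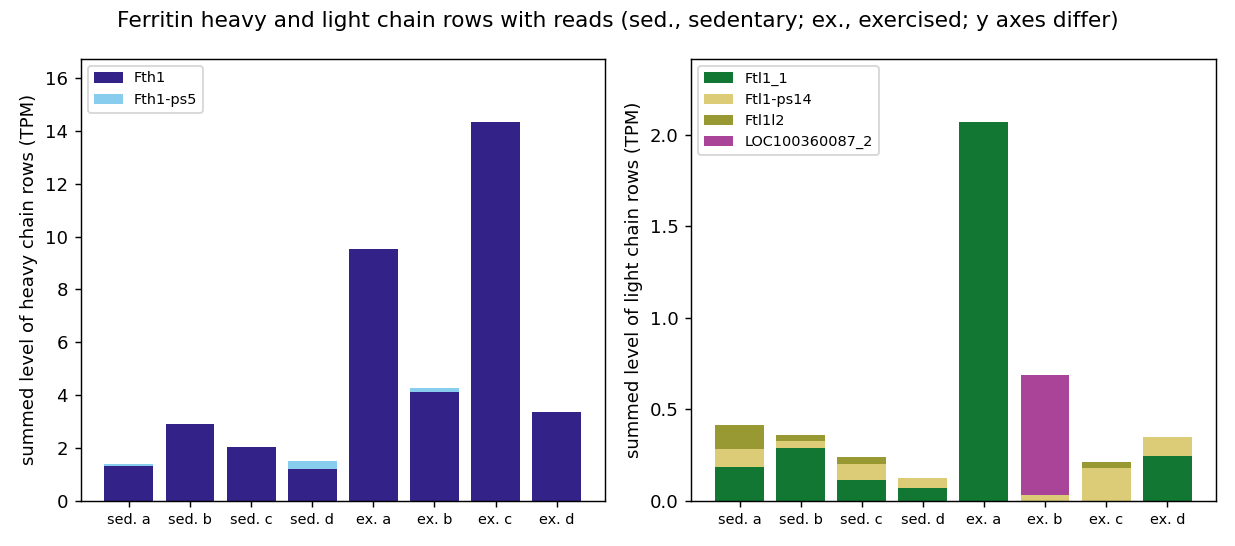
Summed TPM of the ferritin heavy chain rows (left) and light chain rows (right) in each library, with each row that had reads as a coloured part of the bar. Fth1 makes up nearly all of the heavy chain sum, which reaches 14.3 TPM in exercised c, while the light chain sum is highest in exercised a at 2.07 TPM and is carried there by Ftl1_1.

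Ncoa4, the receptor that takes ferritin to the lysosome, had reads in 8 of 8 libraries once its rows were summed. Its levels were 0.128, 0.0717, 0.108 and 0.137 TPM in sedentary libraries a to d. They were 0.440, 0.0241, 0.240 and 0.264 TPM in exercised libraries a to d. Exercised a, c and d lay above every sedentary library, and exercised b lay below them all. The ratio of group means was 2.17, and 0.242 ± 0.170 TPM stood against 0.111 ± 0.0291 TPM (SD, n = 4). Without exercised a the ratio was 1.58 and the groups overlapped. Without exercised b, the library that breaks the separation, it was 2.82 and they did not overlap, as was so for 2.13% of genes with reads when that library was left out. Reads by row were 7, 2, 7 and 6 against 7, 0, 7 and 10 for Ncoa4_1, and of 3, 2, 2 and 4 against 5, 2, 7 and 4 for Ncoa4_2.

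Uptake genes were close to the limit of detection. Tfrc, the transferrin receptor, had 1, 0, 1 and 1 reads in sedentary libraries a to d and 0, 0, 0 and 3 in exercised ones. Its exercised mean rested wholly on exercised d (0.0456 TPM), and sedentary libraries reached 0.0117 TPM. Slc11a2, the endosomal iron transporter, had 0, 0, 3 and 0 reads in sedentary and 2, 1, 1 and 0 in exercised libraries. Shares were taken of all reads, the 10 most abundant RNAs included, and pooled by group. Exercised over sedentary, the share was 1.42 for Tfrc (exact 95% interval 0.190 to 10.6) and 1.90 for Slc11a2 (0.321 to 12.9). Ratios of mean RPM, which leave those RNAs out, were lower, at 1.29 for Tfrc and 1.55 for Slc11a2. Both intervals cover counting error only and span a lower and a higher share. A difference was not detectable at this depth for either gene.

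Slc40a1, the iron exporter ferroportin, had 2, 1, 0 and 0 reads in sedentary libraries a to d and 0, 0, 3 and 2 in exercised ones. The pooled share of all reads was 2.37 times as high in exercised libraries (exact 95% interval 0.461 to 15.3), again within counting error. The ratio of mean RPM was 1.61. Hmox1, which opens the heme ring, was listed at 0 in all 8 libraries. With 810524 reads outside the 10 most abundant RNAs in all, a count of 0 allows up to 3.70 RPM of Hmox1. That limit pools the 8 libraries of both groups and covers counting error only. In a single library the same limit of 3 reads stands for 21.4 to 46.3 RPM.

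The iron regulatory proteins were better seen in Aco1 than in Ireb2. Aco1, which is an aconitase when it holds an iron-sulfur cluster and binds RNA when it does not, had 0.0124, 0.0190, 0.0675 and 0.0833 TPM in sedentary libraries a to d. It had 0.0374, 0.0509, 0.0363 and 0.145 TPM in exercised libraries a to d. The groups overlapped, with a ratio of means of 1.48 that became 0.912 without exercised d. Ireb2, the second iron regulatory protein, had 1, 0, 0 and 2 reads in sedentary and 0, 1, 0 and 8 in exercised libraries. Its 8 reads in exercised d made up 89.5% of its exercised TPM, and the ratio of means went from 4.03 to 0.564 without that library. Exercised d thus held the highest level of Tfrc, Ireb2 and Aco1, while exercised c held that of Fth1.

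Of the 9 genes, 8 had a higher mean in exercised libraries and 1 had no reads, in TPM and in RPM alike. Of all 17901 genes with reads, 57.0% had a higher exercised mean in TPM and 46.9% in RPM. Of the 9 genes 6 had under 30 reads in all, and a single library carried most of the exercised mean of Ftl1, Tfrc, Ireb2, Slc11a2, Slc40a1 and Aco1. In TPM, 1 of the 9 genes had groups that did not overlap, and in RPM none did. The median difference of the 9 genes was 0.02 on the log2(TPM + 1) scale, and it was 0.00 over all genes with reads.

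The levels of the genes relative to each other within a library were not the contrast that chose them, and these were tested. The level of Fth1 was not free of its choice, however. Each RNA that the paper lists as raised, Fth1 among them, had a sizeable mean in its higher group. The order of mean TPM over the 8 libraries was Fth1 (4.85), Ftl1 (0.372), Ncoa4 (0.177), Aco1 (0.0565), Slc11a2 (0.0149), Ireb2 (0.0124), Tfrc (0.00965), Slc40a1 (0.00898) and Hmox1 (0). All 36 pairs were compared on log2(TPM + 1) with two-sided exact sign-permutation tests over the 8 libraries, adjusted over the pairs by the Benjamini-Hochberg method. Of these, 23 pairs had an adjusted p under 0.05. Hmox1, at 0 throughout, could only be the lower gene of its 8 pairs, which make up 4 of the 23, and a gene with reads in 4 libraries or fewer could not pass against it. Fth1 was above each other gene in 8 of 8 libraries, with an exact p of 0.0078, the smallest these tests can give, and an adjusted p of 0.0176. It exceeded Ftl1 by 1.87 ± 0.948 log2 units (SD, n = 8). As the choice of Fth1 may have drawn on its level, its 8 pairs among the 23 are read as a description.

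Among neighbours lower in the order, few could be told apart. Ftl1 and Ncoa4 did not differ beyond their spread (difference 0.12 ± 0.424 log2 units, exact adjusted p 0.699, n = 8), and Ftl1 was the higher in 4 of 8 libraries. Ncoa4 was above Aco1 in 7 of 8 libraries (exact adjusted p 0.0313). Aco1 was above Slc11a2 in 7 of 8 libraries, and this did not pass (exact adjusted p 0.0586). From Slc11a2 to Ireb2, Tfrc, Slc40a1 and Hmox1 no neighbour differed beyond the spread, with exact adjusted p from 0.155 to 0.969, where the pair of Slc40a1 and Hmox1 could not have passed. In sedentary libraries alone the first 4 ranks were the same, and Tfrc ranked 5 and Ireb2 ranked 8.

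The other genes of iron handling went both ways. A list of 69 further genes was drawn up in 5 sets, and 66 of them had reads. Of the 66, 37 had a higher and 29 a lower mean in exercised libraries, with a median difference of 0.00 on the log2(TPM + 1) scale, as over all genes with reads. The mean of 1 TPM required for the test was reached by 3 genes, Tf, Hpx and Alas2. By limma, 0 of 508 genes (0.0%) had an adjusted p under 0.05, while 43 (8.46%) were higher and 11 (2.17%) lower when the unadjusted p was used at 0.05. Scaled without the 10 most abundant RNAs, 16 were higher and 22 lower. By voom on recovered reads 0 passed as well, with 39 at an unadjusted p under 0.05.

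**Figure D3:**
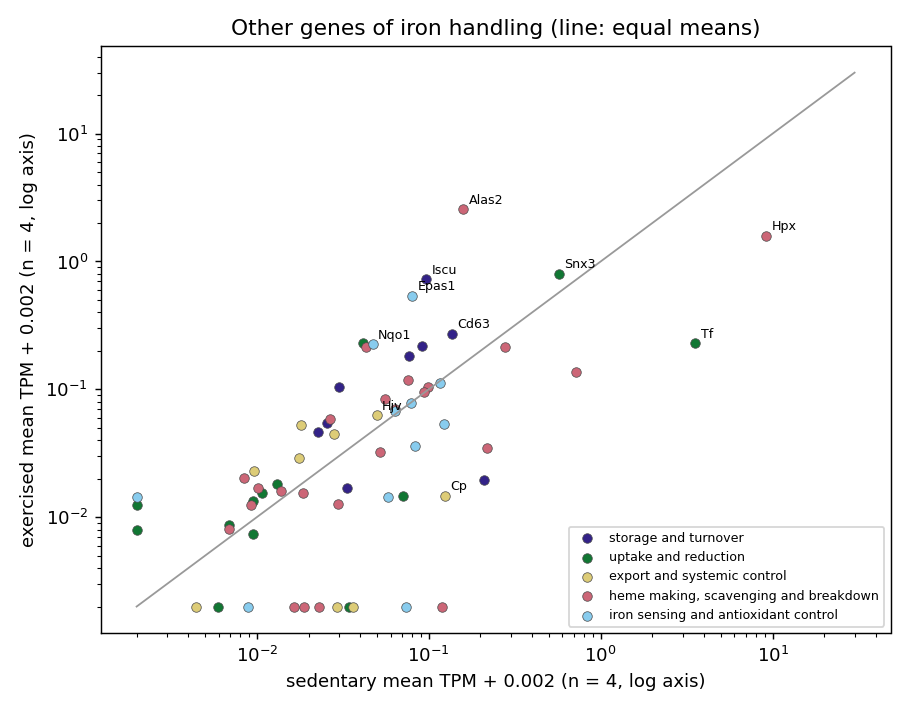
Mean TPM of the 69 other iron genes in exercised (vertical) against sedentary libraries (horizontal), on log axes after adding 0.002 TPM, with 1 point a gene coloured by set and the line marking equal means. The leading genes of each set are named. Tf and Hpx lie below the line and Alas2 above it, while most genes lie under 0.3 TPM and scatter about the line.

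Uptake genes of the wider list were led by Tf, the transferrin that liver secretes to carry iron in plasma. Its levels were 3.70, 0.773, 1.63 and 8.13 TPM in sedentary libraries a to d and 0.0760, 0.811, 0.0185 and 0 TPM in exercised ones. In TPM exercised b, at 0.811, lay just above sedentary b, so the groups overlapped. In RPM they did not, with 524 in the lowest sedentary library and 338 in the highest exercised one, and 1.22% of genes with reads had exercised libraries all below sedentary ones in RPM. The difference was -1.66 log2 units (SE 0.538), and limma gave an adjusted p of 0.312, which did not pass (unadjusted p 0.0125). Tf had reached the filter through its sedentary mean of 3.56 TPM, as its exercised mean was 0.226 TPM, so its test supports no direction. Of the 15 uptake genes 8 had a higher and 5 a lower exercised mean, among them Snx3, which returns the transferrin receptor to the cell surface, at 0.800 ± 0.673 against 0.568 ± 0.453 TPM (SD, n = 4). Steap4, a metalloreductase, reached 0.869 TPM in exercised a and 0.158 TPM in sedentary a, and Tfr2, the hepatic transferrin sensor, reached 0.227 TPM in sedentary d.

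Among the 24 heme genes, 13 had a higher and 11 a lower exercised mean. Hpx, the plasma protein that scavenges heme, had 4.41, 1.94, 6.38 and 24.0 TPM in sedentary libraries a to d. It had 0.684, 5.33, 0.333 and 0 TPM in exercised ones, and the groups overlapped through exercised b. Its difference was -1.92 log2 units (SE 0.763) with a limma adjusted p of 0.389 (unadjusted p 0.0321). Alas2, the first enzyme of heme synthesis in red cell precursors, had 0.310, 0, 0.117 and 0.202 TPM in sedentary and 8.25, 0.0707, 0.870 and 1.02 TPM in exercised libraries. Exercised a, c and d were above every sedentary library and exercised b was not. Alas2 reached the filter through its exercised mean of 2.55 TPM, most of it in exercised a, against 0.157 TPM in sedentary libraries, so no test is given for it. Hp, which binds free hemoglobin, was at 0.134 ± 0.226 against 0.721 ± 0.609 TPM (SD, n = 4), and Slc25a37, the mitochondrial iron importer mitoferrin, at 0.213 ± 0.186 against 0.276 ± 0.233 TPM.

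The other 3 sets lay below the filter for the test. Of 10 genes of storage and turnover 9 had reads, 7 of them with a higher exercised mean. Groups did not overlap for Pcbp1, an iron chaperone that loads ferritin, which was at 0.217 ± 0.127 in exercised and 0.0889 ± 0.0404 TPM in sedentary libraries (SD, n = 4). They did not overlap either for Nfs1, the desulfurase of iron-sulfur cluster assembly, which was lower in exercised libraries at 0.0175 ± 0.0203 against 0.208 ± 0.146 TPM. In RPM the groups stayed apart for Nfs1 but not for Pcbp1, where exercised b, c and d (64.8, 77.5 and 81.2 RPM) lay below sedentary a (96.5 RPM). Of all genes with reads, 1.06% and 0.715% had groups that did not overlap in these directions, and 2 of 66 is read against that. Iscu, the scaffold of the clusters, reached 2.13 TPM in exercised a, and Cd63, a vesicle tetraspanin whose mRNA carries an iron-responsive element in human cells, reached 1.03 TPM there.

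In the set of export and systemic control 5 of 9 genes had a higher and 4 a lower exercised mean. Cp, the plasma ferroxidase, had the highest mean over the 8 libraries through the sedentary ones, while Hjv was above it in exercised libraries. Cp was at 0.0127 ± 0.0160 against 0.122 ± 0.0887 TPM (SD, n = 4). Hamp, the hepatic hormone that degrades ferroportin, was seen in sedentary d alone at 0.137 TPM. In the set of iron sensing and antioxidant control 4 of 11 genes had a higher and 7 a lower exercised mean, and Epas1, a hypoxia factor whose mRNA has an iron-responsive element, was at 0.539 ± 0.549 against 0.0778 ± 0.0567 TPM. Ftmt, Steap1 and Mcoln1 were listed at 0 throughout.

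Markers of blood cells and liver moved between the same libraries, and their part in the Fth1 result was not tested. Summed platelet markers were at 1.13, 2.46, 1.85 and 3.81 TPM in sedentary libraries a to d and at 13, 7.08, 15.8 and 6.67 TPM in exercised ones. These groups did not overlap. Of 12 platelet genes 11 had reads, 8 with a higher and 3 with a lower exercised mean, while Gp1bb was listed at 0. Taken singly, 1 of the 11 had groups apart, Pf4, where 1.06% of all genes with reads did with exercised higher. Single libraries weighed on the sum, with Clec1b at 6.51 TPM in exercised c and Tubb1 at 3.03 TPM in exercised b. Pf4, a platelet granule chemokine, had the highest mean of the platelet genes, with 6.80 ± 3.73 against 1.36 ± 0.563 TPM (SD, n = 4). As a description over the 8 libraries, log2 levels of Fth1 and of the platelet sum had a Pearson r of 0.892, and both carry the scaling that all TPM share. Fth1 was chosen by the contrast of groups that also separates the platelet sum, so this r is no separate result. It was 0.20 for neutrophils, 0.03 for skeletal muscle, -0.13 for monocytes and macrophages and -0.58 for hepatocytes, with red cells given below.

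Red cell markers were at 23.4, 34.1, 12.8 and 8.07 TPM in sedentary libraries a to d and at 126, 26.1, 39.1 and 25.5 TPM in exercised ones, with an r of 0.757 with Fth1. These groups overlapped, and of the 8 genes found 5 had a higher exercised mean. Hba-a2, the alpha globin that makes up most of the sum, was at 49.0 ± 44.8 against 16.2 ± 10.4 TPM (SD, n = 4). Sums of neutrophil markers ran from 0 to 6.57 TPM in sedentary and from 0 to 83.2 TPM in exercised libraries, where exercised c and d held the most, and Elane was listed at 0. Monocyte and macrophage markers stayed between 0.0682 and 1.33 TPM, and 4 of the 9 with reads had a higher exercised mean, with Vsig4 at 0.

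Liver markers went the other way, and they did so with Tf and Hpx. Their sum was 41.6, 16.6, 61.0 and 77.6 TPM in sedentary libraries a to d and 24.1, 62.6, 1.49 and 1.04 TPM in exercised ones. All 12 hepatocyte genes had a lower exercised mean, and exercised b, which held the most Tf and Hpx of its group, held the most liver markers too. The part of liver RNA in the Tf and Hpx values was not tested. Skeletal muscle markers, of which 6 of 7 had reads and Tnni2 did not, ran from 0.418 to 1.65 TPM in sedentary and from 0.114 to 4.11 TPM in exercised libraries.

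**Figure D4:**
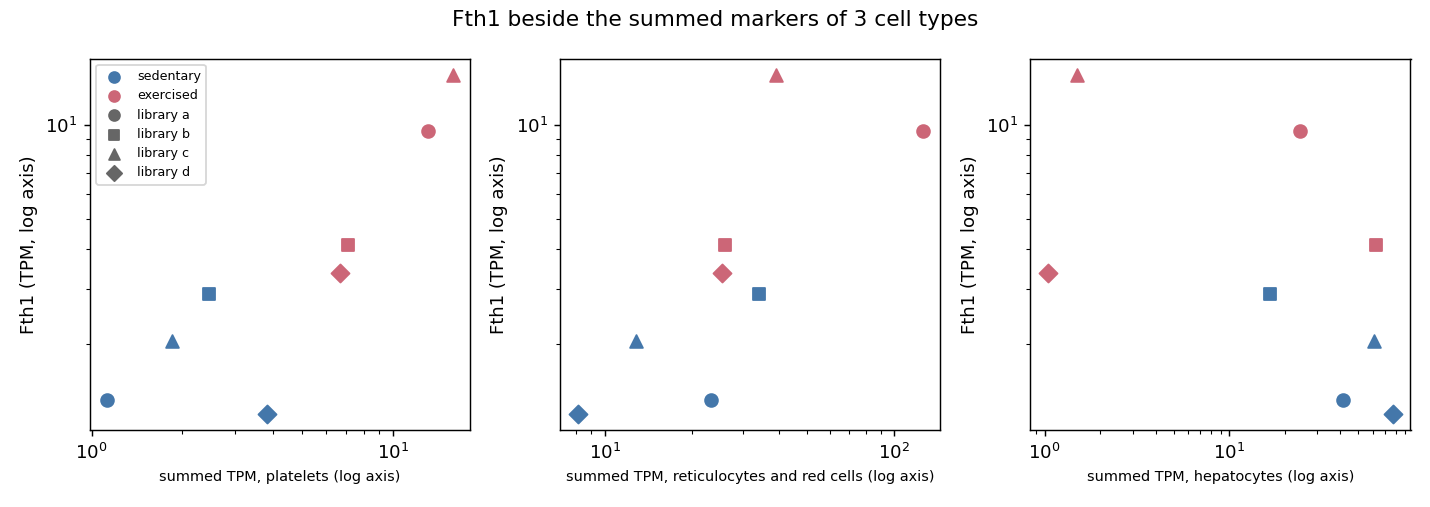
Fth1 (vertical, TPM, log axis) against the summed TPM of platelet, red cell and hepatocyte markers (horizontal, log axes) in the 8 libraries. Colours are the groups and symbols are libraries a to d. Exercised libraries hold 6.67 TPM of platelet markers or more and sedentary ones 3.81 or less, while the hepatocyte sum is lowest in exercised d (1.04 TPM) and exercised c (1.49 TPM).

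The genes most like Fth1 across the 8 libraries were found by the Pearson correlation of log2(TPM + 1). They were Mt-atp6, a mitochondrially encoded subunit of ATP synthase (r 0.917), LOC120093335 (0.907), Hmgb2, a chromatin protein (0.903), Rpl24, a ribosomal protein (0.897), and LOC120093324 (0.896). The LOC names are small nuclear RNA genes in the RefSeq list. Mt-atp6 was highest in exercised c at 24.3 TPM, the library in which Fth1 was highest. LOC120093335 was above 0 in exercised a and c alone, the libraries with the most Fth1. Only genes with a mean of 1 TPM or more were compared. Of the 9 genes Fth1 alone reached that mean, so no other of them could have appeared. Of the 69 further iron genes, Tf, Hpx and Alas2 reached it and were not among the 5.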

How the data were processed

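RNA of plasma exosomes was measured in 4 sedentary and 4 exercised libraries, grouped by their labels. The authors deposited TPM values, made by aligning and counting reads on rat build mRatBN7.2 (submitters' processing notes) and dividing by gene length. Aligner, counter and annotation: not given in the sources used here.

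Whole reads were recovered from the TPM steps (71860 of 71860 values whole at a tolerance of 1e-09), with common factors undone so that gene lengths were whole. RPM gives a gene's reads per 1000000 of those outside the 10 most abundant RNAs, a measure chosen after seeing the data. TPM are not counts, so the 508 genes whose mean reached 1 TPM were compared on log2(TPM + 1), a scale that understates changes of low genes, with limma 3.58.1 in R 4.3.3 (eBayes with trend, Benjamini-Hochberg adjustment). The limma step was tested on simulated data. Numbered rows of Ftl1 and Ncoa4 were summed. Pairs of genes were compared with exact sign-permutation tests. Intervals were exact at 95%. The alternatives were a pseudocount of 0.1 TPM, no filter, other scalings, voom, left-out libraries and a replicate block.

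The named genes were drawn from the 9 members, ferritin copies with reads, up to 4 genes per list with the highest mean TPM, and the 5 genes most like Fth1. Nfs1, Hamp, Ftmt, Steap1, Mcoln1 and the markers at 0 were named after their values were seen. The members and lists were chosen with earlier results of these data known. The letters a to d did not pair the libraries.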

Additional observations from a re-analysis of the deposited data

Results flagged for a closer look

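In 6 of 18 sets of 4 libraries in which a row of the 9 genes had reads, the highest or the lowest library lay further from its neighbour than Dixon's 95% critical value for 4 samples allows. Chance flags about 1 in 20 groups, and rows with few reads are often at 0 in the other libraries. Ftl1_1 reached 2.07 TPM in exercised a (33 reads). Ireb2 reached 0.0713 TPM and Aco1 reached 0.145 TPM in exercised d, each from 8 reads, and Tfrc reached 0.0456 TPM there from 3 reads. Slc11a2 was at 0.0279 TPM in sedentary c from 3 reads, where the other sedentary libraries had none. Ncoa4_1 was lowest in sedentary b, at 0.0447 TPM from 2 reads.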

How the results depend on the processing

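The Fth1 difference ran from 0.89 (quantile normalization) to 1.86 (pseudocount of 0.1 TPM) on the log2 scale over the 16 alternatives run in the fit. It ran from 1.15 to 1.75 when each library was left out. As the Fth1 groups did not overlap in TPM, left-out libraries, the filter, the pseudocount and the block could not turn its direction. Fth1 was chosen by this contrast, so these values describe it and are no support for it. The number of the 9 genes whose groups did not overlap went from 1 to 0 with median-ratio scaling, TPM scaled without the 10 most abundant RNAs and RPM. It was also 0 with quantile normalization, where Fth1 alone was looked at, and with voom, which used the same reads and totals as RPM. Without exercised b it was 2, as Ncoa4 joined Fth1, and 2.13% of all genes with reads then had exercised libraries all above sedentary ones. It lay between 1 and 2 when each library was left out. Of all tested genes, 54 had an unadjusted p under 0.05 by limma (43 higher and 11 lower). Without a filter there were 408 of 17901, and the split was 22 higher and 19 lower with median-ratio scaling, 19 and 27 with quantile normalization, 16 and 22 when scaled without the 10 most abundant RNAs and 21 and 18 with voom. Leaving out each library gave 35 (without sedentary a, where 1 gene passed the adjustment) to 63. Other scalings brought the median log2 difference of the tested genes from 0.40 to between 0.00 and 0.14.

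In the wider iron list 2 genes, Tf and Hpx, had an unadjusted p under 0.05, both lower. There were 4 without a filter and 1 with the letters a to d as a replicate block, which left the Fth1 difference at 1.47 and gave 40 genes in all (34 higher and 6 lower). Leaving out each library gave 1 to 3. Of the 3, 1 was Alas2, which reached the filter through its exercised libraries, so no direction is read from it. Over all 16 alternatives the limma adjusted p was 0.240 to 0.708 for Tf and 0.253 to 0.736 for Hpx. Tf reached the filter through its sedentary libraries, so its range supports no direction. No range is given for Alas2, which fell below the filter whenever exercised a was left out. The cause of these changes was not tested. Deviations of libraries with the same letter had correlations from -0.26 to -0.005 over genes, so the letters were not used as pairs. Of the 36 pairs of levels, 23 passed, and 24, 17 and 16 to 23 did with a pseudocount of 0.1 TPM, reads not divided by length and each library left out. Depth limits the 6 genes with under 30 reads, for which counting error alone spans most differences.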
